A study of Mus musculus with 18 samples.

Results

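The genes described here are 10 members of clade A of the serpins, a family of secreted proteins most of which block proteases: the antitrypsin genes Serpina1a, Serpina1b, Serpina1c, Serpina1d and Serpina1e, the antichymotrypsin-like genes Serpina3k, Serpina3m and Serpina3n, and Serpina6 and Serpina12. They were chosen by their symbols in a table of liver gene expression, at a time when results from the same libraries were known. Which values guided that choice is not on record, so any of the 18 libraries may have taken part in it. For this reason the levels, differences and counts of these 10 genes are given as a description, with no p-value of their own. All 10 symbols were found once among the 19057 gene rows, and all 10 passed the filter on low values. The table holds 24 clade A symbols, so 14 lie outside the list.

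The livers came from ICR mice aged 10 weeks, 3 mice in each of 6 groups. Con mice received no streptozotocin and no oligosaccharide, while STZ mice were made diabetic with streptozotocin, a toxin that destroys the insulin-producing beta cells. A10-FMT and Con-FMT mice also received streptozotocin and were then given gut microbiota by mouth, pooled from the small intestine of donors dosed with alginate oligosaccharide (AOS) at 10 mg/kg or of untreated donors, respectively. AOS mice received the oligosaccharide at 10 mg/kg alone, and STZ+AOS mice received streptozotocin and the oligosaccharide at 10 mg/kg; the labels give these last groups no further detail. The paper describes the Con, STZ, A10-FMT and Con-FMT mice as male, with streptozotocin given as a single dose at the start. Because the donors' material was pooled, the 3 mice of an FMT group share 1 source of microbiota. A chemically induced loss of beta cells models the lack of insulin in type 1 diabetes, not its autoimmune origin. The question put to the liver was how STZ altered its expression and whether either transfer moved it back.

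Serpins act as bait. A flexible reactive loop is offered to a protease, and once it is cut the loop swings into the body of the serpin and drags the enzyme with it into an inactive complex. The loop therefore sets which protease is caught, and the liver secretes large amounts of clade A serpins into plasma. Antitrypsin guards tissue from neutrophil elastase, and antichymotrypsin-like serpins face chymotrypsin-like enzymes and rise in the acute-phase response. In rodents both loci have multiplied into sets of near-identical copies. Serpina6 encodes corticosteroid-binding globulin, which carries glucocorticoids in plasma and has no known protease target. Serpina12 encodes vaspin, first described in visceral fat, which inhibits the kallikrein Klk7.

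All 10 genes lie within 768 kb of chromosome 12, at chr12:103646630-104414329 of GRCm38 (GENCODE M21), with 7 on the minus strand and 3 on the plus strand. From the lowest coordinate the order is Serpina6, Serpina1b, Serpina1d, Serpina1a, Serpina1c, Serpina1e, Serpina12, Serpina3k, Serpina3m and Serpina3n. The annotated record of Serpina1b overlaps that of Serpina1d, and the record of Serpina3m overlaps that of Serpina3k. Between any pair of the 5 antitrypsin genes, 96.3% to 98.5% of aligned coding bases were identical. The value was 91.5% for Serpina3k and Serpina3m, 85.2% for Serpina3m and Serpina3n, and 83.3% for Serpina3k and Serpina3n.

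The stretch that codes for the reactive loop shows where the antitrypsin copies part. In GENCODE M21 each stretch of 78 bases (26 codons) begins at the codons for the conserved glycine, threonine, glutamate and alanine of the loop's hinge and lies in the coding part of exon 5 of 5. Capitals mark the positions at which the 5 copies are not all the same, which are 18 of the 78 here against 86 over the whole coding frame of 413 codons.
Serpina1a (chr12:103853753-103853830, minus strand): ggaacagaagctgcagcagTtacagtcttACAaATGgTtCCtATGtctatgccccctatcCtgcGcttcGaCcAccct
Serpina1b (chr12:103728320-103728397, minus strand): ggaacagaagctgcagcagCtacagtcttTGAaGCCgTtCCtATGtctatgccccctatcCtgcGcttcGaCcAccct
Serpina1c (chr12:103895090-103895167, minus strand): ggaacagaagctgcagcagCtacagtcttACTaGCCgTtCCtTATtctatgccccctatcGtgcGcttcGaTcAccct
Serpina1d (chr12:103763758-103763835, minus strand): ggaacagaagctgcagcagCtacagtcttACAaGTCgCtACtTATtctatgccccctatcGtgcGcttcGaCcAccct
Serpina1e (chr12:103947096-103947173, minus strand): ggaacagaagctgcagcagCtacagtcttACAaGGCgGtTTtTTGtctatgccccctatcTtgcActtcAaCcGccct

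The same stretch of the antichymotrypsin-like genes, also in exon 5 of 5, is shown because these copies differ far more within the loop. Capitals mark the 39 of 78 positions at which the 3 copies are not all the same.
Serpina3k (chr12:104345269-104345346, plus strand): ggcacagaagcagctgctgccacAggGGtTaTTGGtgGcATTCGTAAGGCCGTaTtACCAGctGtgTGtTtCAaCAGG
Serpina3m (chr12:104393769-104393846, plus strand): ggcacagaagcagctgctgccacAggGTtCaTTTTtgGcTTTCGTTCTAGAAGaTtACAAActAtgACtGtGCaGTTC
Serpina3n (chr12:104413448-104413525, plus strand): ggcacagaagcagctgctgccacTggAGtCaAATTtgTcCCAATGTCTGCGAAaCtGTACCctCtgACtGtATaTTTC

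Promoter sequences of RefSeq (GRCm38.p6), from 250 bases before to 50 bases after the start of the gene, were matched for 7 of the 10 genes; Serpina3k, Serpina3m and Serpina6 had no match. The promoters of the 5 antitrypsin genes are shown because these genes share a promoter sequence yet had levels that differed by orders of magnitude. Capitals mark GTTAAT, part of the binding motif of the liver factor HNF1, which was found in these 5 promoters and in 7.10% of the 32851 promoters of the same length.
Serpina1a (chr12:103863626-103863700, minus strand): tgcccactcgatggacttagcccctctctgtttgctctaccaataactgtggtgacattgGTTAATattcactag
Serpina1b (chr12:103738201-103738275, minus strand): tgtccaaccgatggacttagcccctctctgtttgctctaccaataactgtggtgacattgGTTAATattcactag
Serpina1c (chr12:103904963-103905037, minus strand): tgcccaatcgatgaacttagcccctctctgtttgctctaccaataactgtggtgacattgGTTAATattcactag
Serpina1d (chr12:103773635-103773709, minus strand): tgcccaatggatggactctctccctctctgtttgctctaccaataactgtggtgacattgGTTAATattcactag
Serpina1e (chr12:103956961-103957035, minus strand): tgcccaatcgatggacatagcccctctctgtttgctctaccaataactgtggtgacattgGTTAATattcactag

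These windows of 75 bases differed at 10 positions, and the last 54 bases were the same in all 5. GTTAAT began 16 to 27 bases before the start of Serpina1a, Serpina1b, Serpina1c and Serpina1d, and 78 bases before the annotated start of Serpina1e. TGTTCT, part of the motif of the glucocorticoid receptor, occurred in 6 of the 7 promoters, namely the 5 antitrypsin promoters and that of Serpina3n, against 19.0% of all promoters, and it did not overlap GTTAAT. TTCNNNGAA, the core of a STAT site, was in 0 of 7 (8.30% of all promoters), and AGGTCA, an element bound by many nuclear receptors, was in 0 of 7 (16.3%). Each motif was searched on both strands. None of these letters was found in the promoter of Serpina12, whose 250 bases before the start (chr12:104044444-104044693, minus strand) are shown because its level differed most between groups.
Serpina12: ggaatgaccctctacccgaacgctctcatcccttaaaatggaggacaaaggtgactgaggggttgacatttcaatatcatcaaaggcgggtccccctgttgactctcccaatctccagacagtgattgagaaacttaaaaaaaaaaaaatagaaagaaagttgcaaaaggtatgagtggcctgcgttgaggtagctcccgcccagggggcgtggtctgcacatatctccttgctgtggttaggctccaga

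The likeness of the copies limits what a level means. Of all windows of 50 bases along the transcript, the share that matched another clade A transcript with at most 2 mismatches was 93.7% for Serpina1c, 81.6% for Serpina1d, 81.0% for Serpina1a, 76.9% for Serpina1e and 73.8% for Serpina1b. It was 49.9% for Serpina3m, 33.6% for Serpina3k and 27.8% for Serpina3n, and 0% for Serpina6 and Serpina12. The aligner named in the paper's methods was set to report every place at which a read matched equally well. The submitters' processing notes name a different aligner, so which of them made these values is not known. How reads that match several copies were counted is not given in the sources used here. Levels of single antitrypsin genes, and to a lesser extent of the Serpina3 genes, are therefore uncertain in how reads were split among copies. All sequences here are those of the reference genome, and whether these ICR mice carry the same copies was not examined.

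Levels are RPKM, the reads of a gene scaled to transcript length and to how many reads were mapped, and differences are in log2(RPKM + 1), estimated with limma, with standard errors (SE). A difference is called at a Benjamini-Hochberg adjusted p under 0.05 over all genes tested. The sum of RPKM was 749557 to 806937 in Con, 631126 to 684659 in STZ and 621121 to 806937 over all 18 libraries, with 9955 to 10409 genes at 1 RPKM or more. Reads per library cannot be read from these values. The median of all tested genes was 0.21 higher in STZ than in Con on the log2 scale, a shift that median-ratio scaling took to -0.0070. In bulk liver, fewer cells of a type and less RNA per cell cannot be told apart. Of 6 hepatocyte markers 5 were in the table, all expressed, with a summed level of 36614 to 54528 RPKM in Con and 33439 to 46432 RPKM in STZ. Stellate cell markers summed to 67.4 to 78.3 RPKM in Con and 105.6 to 125 RPKM in STZ, Kupffer cell markers to 50.9 to 78.9 RPKM and 73.6 to 133 RPKM, and acinar pancreas markers, of which 1 of 5 reached 1 RPKM in 3 libraries, to 31.7 to 41.0 RPKM and 3.58 to 8.77 RPKM. None of 5 T and B cell markers reached 1 RPKM in 3 libraries. The part of other cell types in the results was not tested.

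The library of STZ mouse 3 stood apart from those of STZ mice 1 and 2 and lay nearer to Con for Serpina1a, Serpina1c, Serpina1d and Serpina3k. Con mice 1 and 3 and STZ+AOS mouse 1 had high levels of acute-phase genes, and Saa2 read 7018, 300.04 and 3826 RPKM in Con mice 1, 2 and 3 and 3006 RPKM in STZ+AOS mouse 1. Values without STZ mouse 3 or STZ+AOS mouse 1 are given for some genes, and none is given without Con mouse 1 or 3. With all mice, 2 of the genes described here were called higher and 5 lower in STZ than in Con, beside 38.5% of all genes called. Only 4 were called when any 1 of Con mice 1, 2 and 3 or STZ mice 1 and 2 was left out. The share of all genes called was then 24.2% to 32.9%. Without STZ mouse 3 the count was 8, beside 47.4% of all genes. Of the calls lost in this way, only that of Serpina6 without STZ mouse 1 is named below. Nothing in the labels links mice to cages or days, so the errors measure the spread between these mice.

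The 10 genes together summed to 41795 ± 1106 RPKM in Con and 21450 ± 8069 RPKM in STZ (SD, n = 3). This was 5.42% ± 0.35 of all RPKM in Con and 3.24% ± 1.09 in STZ. The share was 4.75% ± 0.13 in A10-FMT, 4.49% ± 0.83 in Con-FMT, 5.14% ± 0.13 in AOS and 3.17% ± 0.43 in STZ+AOS. In Con the order of the means was Serpina1d (13740 RPKM), Serpina1c (10903), Serpina1b (8284.1), Serpina3k (7936), Serpina3n (400.3), Serpina1a (208), Serpina3m (168), Serpina6 (141), Serpina12 (13.3) and Serpina1e (1.41). Among neighbours in that order the mice of Serpina1b and Serpina3k overlapped, as did those of Serpina1a and Serpina3m and of Serpina3m and Serpina6. Levels of different genes are compared here per length of transcript only.

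**Figure D1:**
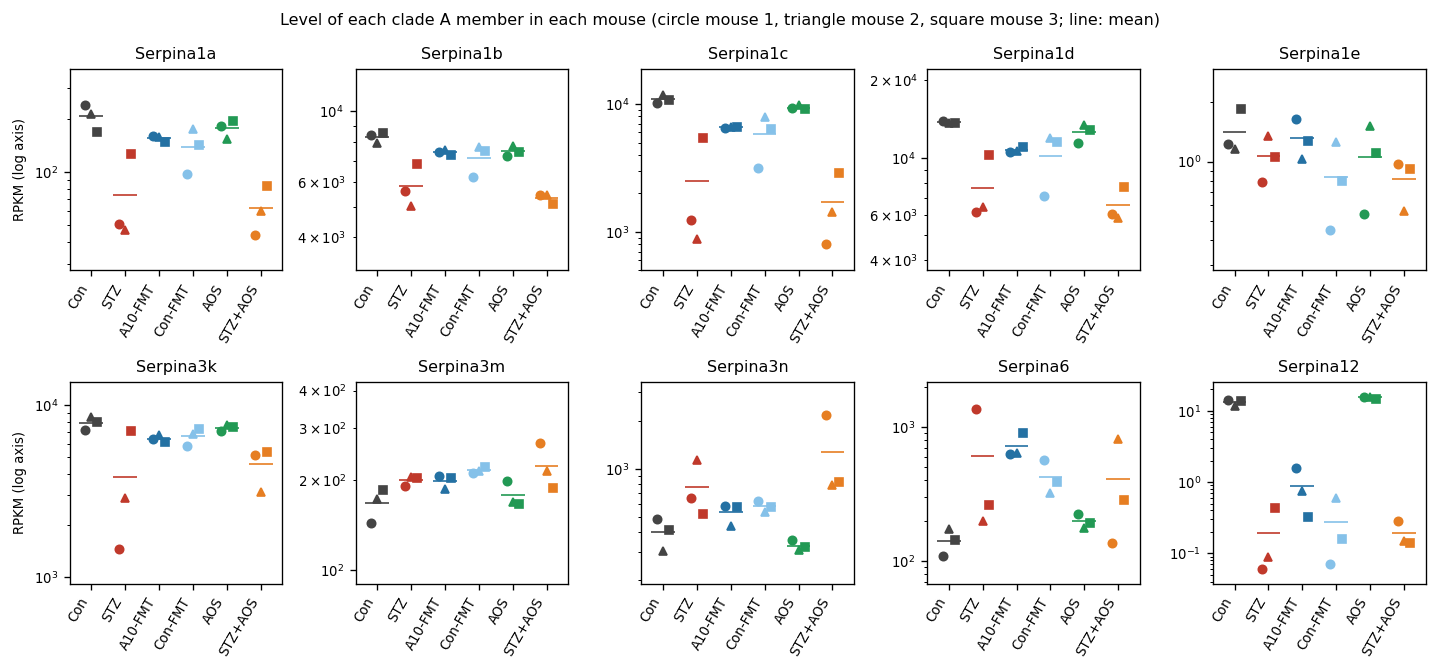
Level of each of the 10 genes in RPKM (log axis) in each mouse, by group; circles, triangles and squares are mice 1, 2 and 3 and the line is the mean of 3 mice. Serpina12 lies at 11.8 RPKM or above in the 6 mice without streptozotocin and at 1.59 RPKM or below in the other 12, whereas Serpina1e stays between 0.45 and 1.84 RPKM throughout.

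Of the antitrypsin genes, Serpina1c had the lowest level in STZ relative to Con. It read 10167, 11795 and 10749 RPKM in the 3 Con mice and 1246, 881 and 5428 RPKM in STZ mice 1, 2 and 3. The groups did not overlap, and STZ mouse 3 lay well above the other STZ mice. The mean in STZ was 23.1% of that in Con, a difference of -2.59 ± 0.56 (SE, n = 3) on the log2 scale and of -3.38 without STZ mouse 3. STZ+AOS mice read 799, 1443 and 2899 RPKM against 9282, 9792 and 9084 RPKM in AOS, a log2 difference of -2.65 ± 0.55. Both streptozotocin comparisons thus gave nearly the same value in separate mice, although the choice of this gene may have used both sets of mice.

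In the recipients of microbiota Serpina1c was intermediate. A10-FMT mice read 6470, 6639 and 6643 RPKM, a range narrower than in any other group, and Con-FMT mice read 3159, 7951 and 6327 RPKM. Every A10-FMT mouse was above every STZ mouse and below every Con mouse. Con-FMT mouse 1 lay below STZ mouse 3, so Con-FMT and STZ overlapped. The log2 difference from STZ was 1.86 ± 0.56 for A10-FMT mice. For Con-FMT mice it was 1.58 ± 0.56, and neither was called. Without STZ mouse 3, a mouse singled out after its values were seen, they were 2.65 and 2.37.

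Serpina1a, far less abundant than Serpina1c, followed the same course. Con mice read 241, 214 and 169 RPKM, and STZ mice 50.6, 46.7 and 126 RPKM, with no overlap and with STZ mouse 3 again closest to Con. The log2 difference was -1.60 ± 0.33, and -2.06 without that mouse. AOS mice read 182, 154 and 195 RPKM and STZ+AOS mice 44.3, 60.5 and 83.4 RPKM, a difference of -1.52 ± 0.32. A10-FMT mice, at 160, 159 and 148 RPKM, were all above the STZ mice, whereas Con-FMT mice, at 97.7, 175 and 142 RPKM, overlapped them.

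Serpina1d, the most abundant of the 10 genes, differed less. It read 13872, 13694 and 13653 RPKM in Con and 6172, 6433 and 10239 RPKM in STZ. The ranges were apart, and the log2 difference was -0.89 ± 0.27. A10-FMT mice read 10543, 10599.6 and 11028 RPKM, all above STZ, and Con-FMT mice read 7114, 11946 and 11505 RPKM, partly within it. STZ+AOS mice, at 6054, 5841 and 7716 RPKM, were all below the AOS mice, at 11473, 13384 and 12891 RPKM, and the difference was -0.95 ± 0.24. Here too the scaling mattered, since quantile normalization took these differences to -0.08 and -0.07.

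Serpina1b had the smallest difference of the 4 abundant or moderately abundant copies. Con mice read 8405, 7924 and 8523 RPKM and STZ mice 5598, 5035 and 6839 RPKM. The groups were apart, yet the log2 difference of -0.52 ± 0.19 was not called. In STZ+AOS mice the level was 5453, 5460 and 5120.1 RPKM, below all AOS mice (7248, 7784 and 7443 RPKM), and the difference of -0.49 ± 0.17 was called. The direction for Serpina1b depended on scaling: quantile normalization, which gives every library the same set of values, turned the differences to 0.26 and 0.19, while median-ratio scaling gave -0.79 and -0.73.

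Serpina1e stayed near 1 RPKM in every group. Its lowest value was 0.45 RPKM in Con-FMT mouse 1 and its highest was 1.84 RPKM in Con mouse 3. All groups overlapped, with differences of -0.22 ± 0.18 between STZ and Con and -0.16 ± 0.20 between STZ+AOS and AOS. The sampling error of values near 1 RPKM could not be calculated from this table.

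Ratios of the copies within a library need no reference to other genes. Because the copies are so alike, the size of an unequal change depends on how shared reads were split, which is unknown. The ratio of Serpina1c to Serpina1b was 1.21, 1.49 and 1.26 in Con mice 1, 2 and 3 and 0.222, 0.175 and 0.794 in the STZ mice. The A10-FMT mice gave 0.872, 0.878 and 0.911, and the Con-FMT mice 0.509, 1.03 and 0.846. AOS mice gave 1.28, 1.26 and 1.22, and STZ+AOS mice 0.147, 0.264 and 0.566. All streptozotocin-treated mice, with or without transfer, were thus below all mice without it. The ratio of Serpina1d to Serpina1b was 1.66 ± 0.06 in Con, 1.29 ± 0.20 in STZ and 1.23 ± 0.24 in STZ+AOS (SD, n = 3), so Serpina1d kept closer to Serpina1b than Serpina1c did. The ratio of Serpina1a to Serpina1b was 0.0251 ± 0.0047 in Con and 0.0123 ± 0.0054 in STZ. These ratios carry the uncertainty in how shared reads were split.

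**Figure D2:**
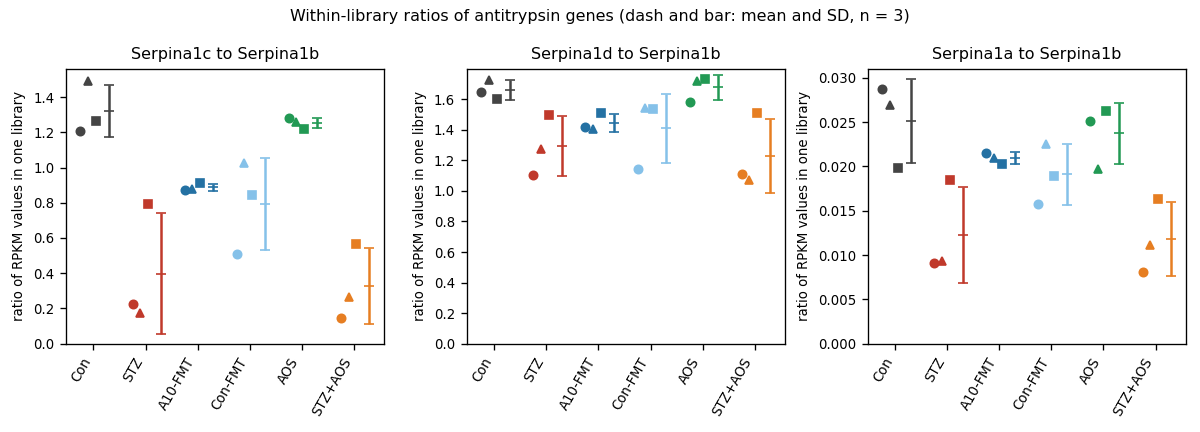
Ratio of RPKM values within each library for Serpina1c, Serpina1d and Serpina1a over Serpina1b, by group; points are mice and the dash with bar is the mean with SD of 3 mice. The ratio of Serpina1c to Serpina1b lies at 1.21 or above in Con and AOS and between 0.147 and 1.03 in the 12 mice given streptozotocin.

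Summed over the 5 copies, antitrypsin RNA made up 4.30% ± 0.22 of all RPKM in Con and 2.42% ± 0.77 in STZ. It was 3.61% ± 0.11 in A10-FMT, 3.35% ± 0.78 in Con-FMT, 4.03% ± 0.12 in AOS and 2.15% ± 0.34 in STZ+AOS (SD, n = 3).

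The antichymotrypsin-like genes did not move as 1 set. Serpina3k, an abundant liver serpin also known as kallikrein-binding protein, read 7210.1, 8558 and 8040.4 RPKM in Con and 1465, 2908 and 7142 RPKM in STZ. STZ mouse 3 was just below the lowest Con mouse, so the ranges barely failed to meet. The log2 difference was -1.34 ± 0.43 with all mice, -1.94 without STZ mouse 3 and -0.80 without STZ mouse 1. With quantile normalization it was -0.81 and not called. A10-FMT (6343, 6685 and 6149.9 RPKM) and Con-FMT (5821, 6856 and 7254 RPKM) were alike in level, with differences from STZ of 1.03 ± 0.43 and 1.08 ± 0.43. Leaving out STZ mouse 1 gave 0.49 for the former and 0.54 for the latter. Leaving out STZ mouse 3 instead gave 1.63 and 1.68. AOS mice read 7107, 7681 and 7464 RPKM and STZ+AOS mice 5153, 3144 and 5377 RPKM, a difference of -0.74 ± 0.39 that was not called although the groups were apart.

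Serpina3m, the closest relative of Serpina3k, varied little. Con mice read 144, 173 and 186 RPKM and STZ mice 192, 206 and 204 RPKM, with a log2 difference of 0.26 ± 0.11. That is close to the shift of the median gene, and median-ratio scaling left a difference of -0.0046. Over all 18 libraries its range was 144 to 267 RPKM. The ratio of Serpina3k to Serpina3m was 47.5 ± 3.8 in Con and 18.9 ± 14.3 in STZ, with STZ mouse 3 at 35.0.

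Serpina3n was higher in STZ than in Con. It read 481, 305 and 414 RPKM in Con and 658, 1138 and 525 RPKM in STZ. The lowest STZ mouse was above the highest Con mouse, as for 40.8% of all genes, and the log2 difference was 0.89 ± 0.26. Median-ratio scaling took this difference to 0.63, and quantile normalization took it to 0.56, where it was not called. STZ+AOS mice read 2179.7, 789 and 822 RPKM against 357, 309.9 and 324 RPKM in AOS, a difference of 1.76 ± 0.33. Without STZ+AOS mouse 1 it was 1.28. A10-FMT mice, at 588, 439.8 and 579 RPKM, and Con-FMT mice, at 630.5, 539.9 and 579.8 RPKM, overlapped the STZ mice.

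Serpina3n is known as an acute-phase gene, and serum amyloid A, the classic marker of that response, differed among mice of 1 group. Saa2 was 14.9, 272 and 21.9 RPKM in STZ mice 1, 2 and 3 and 3006, 168 and 17.6 RPKM in STZ+AOS mice 1, 2 and 3. In both groups the mouse with the most Saa2 had the most Serpina3n. Between groups the genes parted, since Con mice 1 and 3 held 7018 and 3826 RPKM of Saa2 with less Serpina3n than any STZ mouse. Across the 18 libraries Pearson's r of Serpina3n with Saa2 was 0.20, and it was 0.80 after the group means were taken away, as a description over mice that share groups. The corresponding values were 0.58 and 0.87 for Lcn2 and 0.89 and 0.71 for Stat3, a transcription factor of the acute-phase response. The part of the acute phase in the level of Serpina3n was not tested.

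**Figure D3:**
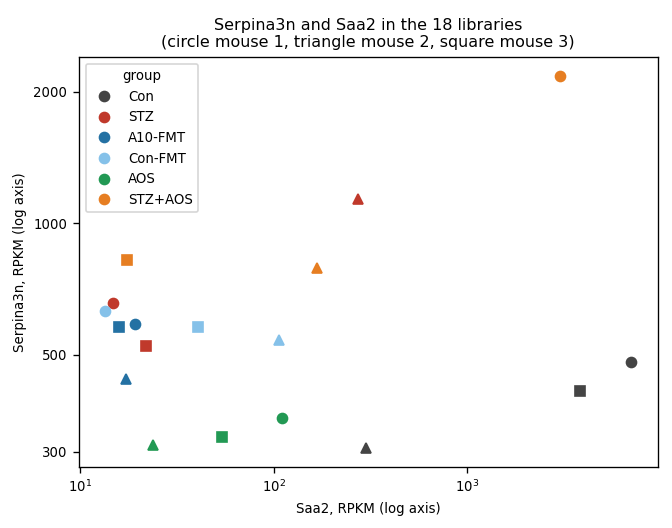
Serpina3n against Saa2, both in RPKM on log axes, in the 18 libraries; colour is the group and the symbol the mouse number. Within STZ and STZ+AOS the mouse highest in Saa2 is highest in Serpina3n, while Con mice 1 and 3 combine the highest Saa2 values (7018 and 3826 RPKM) with Serpina3n values of 481 and 414 RPKM.

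Serpina6, the glucocorticoid carrier, was higher in STZ, with a spread set by 1 mouse. Con mice read 108, 172 and 142 RPKM and STZ mice 1354, 198 and 263 RPKM. All STZ mice were above all Con mice, and STZ mouse 1 was far above the other STZ mice. The log2 difference was 1.57 ± 0.56, and 0.71 without STZ mouse 1, when it was no longer called. A10-FMT mice read 626, 635 and 894 RPKM and Con-FMT mice 569, 319 and 389.6 RPKM, with no overlap between these groups and a difference of 0.78 ± 0.56 that was not called. STZ+AOS mice read 136, 809.7 and 283 RPKM and AOS mice 223, 177 and 193 RPKM, so that STZ+AOS mouse 1 was below every AOS mouse. Their difference was 0.68 with all mice, 1.28 without STZ+AOS mouse 1 and -0.0016 without STZ+AOS mouse 2.

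The Serpina6 level in the diabetic groups ran against that of Serpina3k. After group means were taken away, Pearson's r between them was -0.70 over the 18 libraries, a description only. STZ mouse 1, with the most Serpina6, had the least Serpina3k of all libraries, at 1465 RPKM. STZ+AOS mouse 2 had the most Serpina6 and the least Serpina3k of its group, at 809.7 and 3144 RPKM. Hsd11b1, the enzyme that regenerates active glucocorticoid in liver and a gene outside the list, was higher in STZ than in Con by 0.56 ± 0.16 on the log2 scale (limma, adjusted p = 0.018). It was not called in STZ+AOS against AOS, at 0.10 ± 0.15 (limma, adjusted p = 0.642). AOS against Con gave 0.38 ± 0.15, also not called (limma, adjusted p = 0.647). A link between Hsd11b1 and Serpina6 was not tested.

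Serpina12 had the widest gap of the 10 genes. It read 14.3, 11.8 and 13.6 RPKM in Con and 15.9, 15.9 and 14.6 RPKM in AOS. STZ mice read 0.06, 0.09 and 0.43 RPKM and STZ+AOS mice 0.28, 0.15 and 0.14 RPKM. Every mouse without streptozotocin was thus above every mouse given it, the FMT groups included. The mean in Con was 68.6 times that in STZ. On the log2(RPKM + 1) scale, which understates changes of such low levels, the differences were -3.59 ± 0.23 for STZ against Con and -3.79 ± 0.20 for STZ+AOS against AOS. With a pseudocount of 0.1 they were -5.72 and -5.78.

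Neither transfer brought Serpina12 near the level of Con. A10-FMT mice read 1.59, 0.75 and 0.32 RPKM, which is 6.69% of Con on average. Con-FMT mice read 0.07, 0.60 and 0.16 RPKM, or 2.09% of Con. Both groups overlapped STZ, at differences of 0.62 ± 0.23 and 0.09 ± 0.23. By comparison, Serpina1c stood at 60.4% and 53.3% of its Con mean in A10-FMT and Con-FMT.

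**Figure D4:**
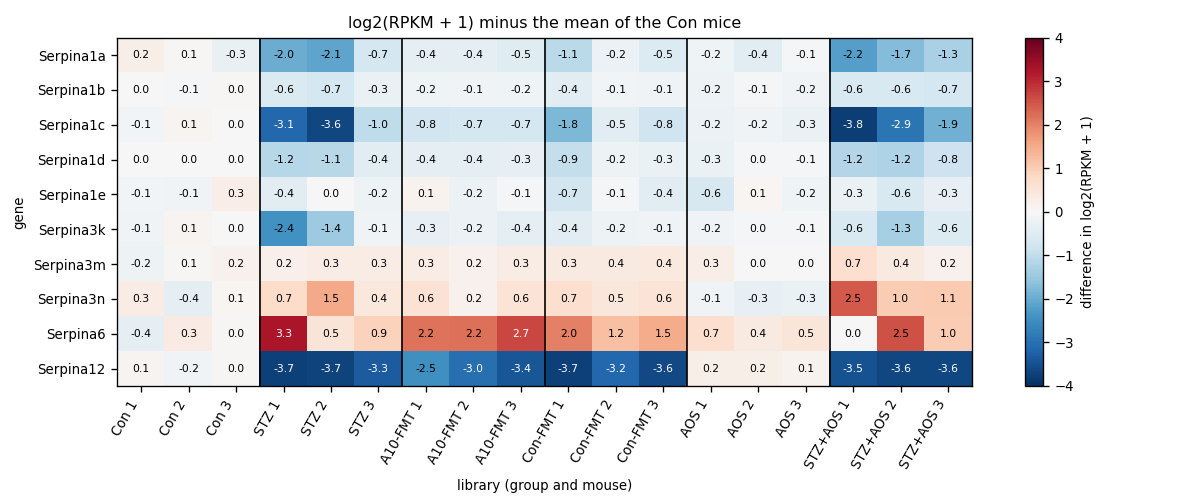
Difference in log2(RPKM + 1) from the mean of the 3 Con mice, for the 10 genes (rows) in the 18 libraries (columns, by group and mouse); red is higher and blue lower. STZ mice 1 and 2 and the STZ+AOS mice are the darkest blue for Serpina1c and Serpina1a, STZ mouse 3 is paler, and Serpina12 stays blue in all 12 mice given streptozotocin.

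Counted over the 10 genes, 2 were called higher (Serpina3n and Serpina6) and 5 lower (Serpina1a, Serpina1c, Serpina1d, Serpina3k and Serpina12) in STZ than in Con. Among all 10602 genes tested, 38.5% were called, 33.0% higher and 5.52% lower. Groups without overlap were seen for 3 of the 10 upward and 6 downward, against 40.8% and 6.98% of all genes. Since the list may have been chosen on these libraries, nothing is read from these counts. The median log2 difference was -0.71 over the 10 genes and 0.21 over all genes tested.

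STZ+AOS against AOS used mice separate from those of STZ and Con, although the choice of genes may have used them too. Here 1 gene was called higher (Serpina3n) and 5 lower (Serpina1a, Serpina1b, Serpina1c, Serpina1d and Serpina12), and 1 and 6 did not overlap. Of all 10822 genes tested, 37.9% were called (31.8% higher and 6.11% lower), and 40.5% higher and 8.61% lower did not overlap. The median was -0.61 over the 10 genes and 0.21 over all. In the fit of all 6 groups the test of the difference between the streptozotocin effects with and without AOS (limma) called 0 of 10822 genes, with 584 at an unadjusted p under 0.05 and 0 of those among the 10.

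Against STZ, A10-FMT gave 0 called genes of the 10 with limma, beside 0.226% of all genes, and Con-FMT gave 0, beside 0.00943%. At an unadjusted p under 0.05 there were 4 and 3 of the 10, beside 20.9% and 20.1% of all genes. In A10-FMT 4 of the 10 were higher than STZ without overlap (Serpina1a, Serpina1b, Serpina1c and Serpina1d), beside 7.61% of all genes, and in Con-FMT 1 was (Serpina3m), beside 8.32%. Both comparisons share the STZ mice, and the library of STZ mouse 3 set how many genes were called in general. Without it 4 of the 10 were called in A10-FMT (Serpina1a, Serpina1c, Serpina1d and Serpina3k), beside 1343 of 10580 genes or 12.7%, and 3 in Con-FMT (Serpina1a, Serpina1c and Serpina3k), beside 1636 genes or 15.5%. Without STZ mouse 1, 1 was called in A10-FMT (Serpina6), beside 113 of 10548 genes or 1.07%. STZ mouse 3 lies nearest to Con for these genes, so its removal widens their differences, and nothing is read from the counts without it.

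A10-FMT and Con-FMT were also compared with each other. None of the 10 was called (limma, beside 0.00% of all genes), 1 had an unadjusted p under 0.05 (beside 2.86%), and 1 was higher (Serpina6) and 1 lower (Serpina3m) without overlap, beside 2.94% and 5.98%. The intervals of these differences are wide: the SE was 0.56 for Serpina1c and 0.27 for Serpina1d, with differences of 0.28 and 0.11. A missed threshold at 3 mice a group does not show that the transfers acted alike.

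AOS against Con gave 0 called with limma (beside 0.00924% of all genes) and 0 at an unadjusted p under 0.05 (beside 7.22%). Without overlap 2 were higher (Serpina6 and Serpina12) and 3 lower (Serpina1b, Serpina1c and Serpina1d), beside 19.1% and 5.24%. The lower genes differed by -0.13 to -0.21 on the log2 scale, and the higher ones by 0.50 ± 0.61 for Serpina6 and 0.21 ± 0.20 for Serpina12. STZ+AOS against STZ gave 0 called (beside 0.00%) and 0 at an unadjusted p under 0.05 (beside 6.07%), with the largest differences at 0.62 ± 0.33 for Serpina3n and 0.51 ± 0.39 for Serpina3k. Both moved with single mice: Serpina3n gave 0.14 without STZ+AOS mouse 1, and Serpina3k gave -0.04 without STZ mouse 1 and 1.10 without STZ mouse 3.

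**Figure D5:**
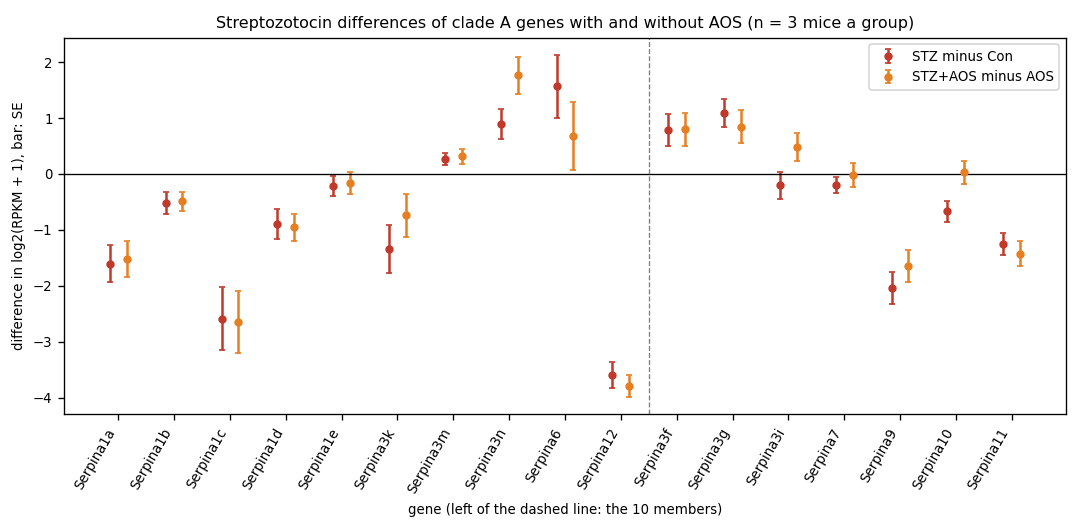
Differences in log2(RPKM + 1) with SE for STZ minus Con and STZ+AOS minus AOS (3 mice a group), for the 10 genes and, right of the dashed line, 7 other clade A genes tested. The paired points lie close for the antitrypsin genes and Serpina12, and are farthest apart for Serpina6 (1.57 and 0.68) and Serpina3n (0.89 and 1.76); without STZ+AOS mouse 1 the second value is 1.28 for each of these genes.

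The other clade A genes are those the list left out, so the same choice shaped them. Of 16 listed symbols 14 were in the table and 7 were tested in the 4 groups, of which 2 were called higher and 3 lower in STZ. Of all genes 33.0% were called higher and 5.52% lower. Serpina11 read 224, 268 and 247 RPKM in Con and 90.1, 108 and 112 RPKM in STZ, a log2 difference of -1.25 ± 0.20 (limma, adjusted p = 0.00139). Serpina9, at 3.90 to 4.50 RPKM in Con and 0 to 0.91 RPKM in STZ, differed by -2.03 ± 0.28 (adjusted p = 7.2e-04, limma). Serpina10, the inhibitor of coagulation factors Xa and XIa known as protein Z-dependent protease inhibitor, fell by 0.67 ± 0.19 (limma, adjusted p = 0.018). The low-level genes Serpina3g and Serpina3f rose, by 1.09 ± 0.25 (adjusted p = 0.00698) and 0.79 ± 0.28 (adjusted p = 0.044, both limma). Serpina7, thyroxine-binding globulin, gave -0.19 ± 0.14 (adjusted p = 0.3) and Serpina3i gave -0.20 ± 0.25 (adjusted p = 0.533, both limma).

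In STZ+AOS against AOS, 2 of 8 tested clade A genes outside the list were called higher and 3 lower, beside 31.8% and 6.11% of all genes. Serpina11 differed by -1.42 ± 0.23 (limma, adjusted p = 4.9e-04) and Serpina9 by -1.64 ± 0.28 (adjusted p = 7.6e-04, limma). Serpina10 gave 0.03 ± 0.21 there, and its AOS mice (136, 125 and 122 RPKM) lay below all Con mice (263, 147 and 202 RPKM). In A10-FMT and Con-FMT against STZ none of the 7 was called by limma. In each, 2 had an unadjusted p under 0.05, beside 20.9% and 20.1% of all genes.

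Serpins of other clades, which include antithrombin and the plasminogen activator inhibitor, gave 2 called higher and 1 lower of 10 tested (of 13 in the table) in STZ. Serpine2, protease nexin 1, fell by 1.62 ± 0.22 (limma, adjusted p = 7.0e-04). Serpinb9, an inhibitor of granzyme B, rose by 0.41 ± 0.11 and Serpinb1a, an inhibitor of neutrophil elastase, by 1.59 ± 0.54 (adjusted p = 0.0165 and 0.0369, limma). The median of all tested genes was itself 0.21 higher, against 0.41 for Serpinb9. In STZ+AOS against AOS Serpine2 was called at -1.28 ± 0.25, and Serpinb9 (0.25 ± 0.19) and Serpinb1a (1.11 ± 0.55) were not. Levels were low for Serpine2 and Serpinb1a, with Con means of 2.98 and 0.68 RPKM. Among proteases and partners of clade A serpins, 1 rose and 2 fell of 8 tested: Hsd11b1 as above, F11 (coagulation factor XI) at -1.20 ± 0.19 and Prtn3 (proteinase 3 of neutrophils) at -1.48 ± 0.52 (adjusted p = 0.00121 and 0.042, limma). Prtn3 read 8.5, 0.61 and 4.32 RPKM in Con mice 1, 2 and 3 and 0.91, 0.49 and 0.31 RPKM in STZ. Its groups overlapped, and the high values were those of Con mice 1 and 3. In STZ+AOS against AOS Prtn3 differed by -0.08 ± 0.52 and was not called.

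Of 16 transcription factors that act on genes of secreted liver proteins, 5 rose and 1 fell in STZ. Of all genes 33.0% rose and 5.52% fell, so nothing is read from this count or from those of the lists around it. Hnf4a rose by 0.75 ± 0.11 (limma, adjusted p = 0.00102), Cebpd by 1.10 ± 0.20 (adjusted p = 0.0022) and Cebpb by 0.82 ± 0.16 (adjusted p = 0.00368, limma for all). Stat5a fell by 0.69 ± 0.16 (limma, adjusted p = 0.0064). Stat5b was higher by 0.29 ± 0.11 and was not called (limma, adjusted p = 0.0591). That is close to the 0.21 by which the median gene was higher. Its groups did not overlap, as for 40.8% of all genes in that direction. In A10-FMT against STZ 1 of the 16 was called, Stat5b, which fell by 0.70 ± 0.11 (limma, adjusted p = 0.0354) and was named after its value was seen. Of 5 genes of the growth hormone pathway, Igfals, which holds IGF1 in plasma, fell by 1.20 ± 0.24 and Ghr, the receptor, by 0.98 ± 0.21, while Socs2, a feedback inhibitor, rose by 1.47 ± 0.35 (adjusted p = 0.00368, 0.0053 and 0.00784, limma). In STZ+AOS against AOS Igfals (-1.575 ± 0.24) and Ghr (-1.42 ± 0.21) were called, and Socs2 (0.785 ± 0.42) was not.

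Acute-phase genes went the other way from Serpina3n in STZ against Con: 0 of 14 rose and 6 fell, with a median log2 difference of -0.99. Saa2 fell by 5.44 ± 1.23, Apcs by 2.22 ± 0.57, Saa1 by 4.47 ± 1.23 and Fgg by 0.95 ± 0.27 (adjusted p = 0.00655, 0.0115, 0.0158 and 0.0193, limma). Con mice 1 and 3 carried the largest of these: Saa1 read 6422, 296 and 3570 RPKM in Con mice 1, 2 and 3 and 454 RPKM in STZ mouse 2, and Apcs read 1160, 313 and 788 RPKM in Con and 178, 283 and 54.9 RPKM in STZ. Fgg also was lowest of Con in mouse 2, at 2770 RPKM, yet there the groups did not overlap. The part of Con mice 1 and 3 in the list's count was not tested. In STZ+AOS against AOS 2 of 14 rose and 0 fell. Of 10 genes of folding and export in the secretory pathway 1, Herpud1, rose in STZ by 1.71 ± 0.19 (limma, adjusted p = 3.6e-04), and 0 fell.

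The 10 genes fell into sets by how they varied over the 18 libraries, given here as Pearson's r of log2(RPKM + 1) with no test, since mice of a group share their treatment. The 4 expressed antitrypsin genes correlated with each other at 0.93 to 0.98, and at 0.67 to 0.93 once group means were taken away. These copies share most of their sequence, and how shared reads were counted is unknown. Their levels may thus rest partly on the same reads, so nothing about shared regulation is read from these values. Serpina3k correlated with them at 0.74 to 0.81. Serpina3n ran against them, at -0.77 to -0.88. Serpina12 correlated with Serpina1c at 0.70, and at 0.34 once group means were taken away.

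Among 10808 other genes, those whose pattern was most like that of Serpina12 were Nat8f7 (r = 0.98 over 18 libraries), Klk1b4 (0.95) and Gna14 (0.95). Once group means were taken away, these values were only 0.44, 0.36 and 0.48. Nat8f7 read 8.84, 18.5 and 13.0 RPKM in Con and 0.04, 0 and 0.29 RPKM in STZ, and 0.13 to 0.78 RPKM in the FMT groups, so it too stayed low after transfer. Serpina3k was most like Ces3b (0.95), a carboxylesterase, C8a (0.94), a complement subunit, and Mup10 (0.92), a major urinary protein. Serpina3n was most like Ifitm2 (0.97), Tnfrsf1a (0.95), the receptor of tumour necrosis factor, and Grn (0.94). Upp2 (0.93), a uridine phosphorylase, and Prdx6 (0.93), a peroxiredoxin, were among the genes most like Serpina6. Serpina1e reached only 0.77 with Polb, 0.68 with Traf3 and 0.64 with Cstf3.

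The genes most like Serpina1c, named after their values were seen, were Nudt7 (r = 0.98), Cyp4a12a (0.98) and Mup3 (0.98), the last a major urinary protein and the middle one a cytochrome P450, both known for higher expression in male liver. Cyp4a12a read 387, 363 and 379 RPKM in Con, 0.41, 0.40 and 94.7 RPKM in STZ, 123, 174 and 99.98 RPKM in A10-FMT and 8.03, 204 and 152 RPKM in Con-FMT. As for Serpina1c, STZ mouse 3 was above the other STZ mice and Con-FMT mouse 1 below the other mice of its group.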

How the data were processed

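The authors isolated liver RNA with TRIzol, enriched mRNA with oligo(dT) beads, sequenced it on an Illumina HiSeq instrument, mapped reads with SOAPaligner and deposited 1 RPKM value per gene and library; the submitters' processing notes name Bowtie 0.12.2 and the build mm10. RPKM are scaled by the authors to transcript length and mapped reads, so the depth in reads is unknown and no counting interval is given. The lowest values did not fall on whole steps of 1 read (score 0.176 to 0.348, where 1 is perfect).

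From these values, log2(RPKM + 1) was modelled by limma (version 3.58.1, under R 4.3.3, functions lmFit, contrasts.fit and eBayes with a variance trend) for genes at 1 RPKM or more in at least 3 libraries of the fit. Con, STZ, A10-FMT and Con-FMT entered 1 model (12 libraries, 10602 genes), and all 6 groups another (18 libraries, 10822 genes) for comparisons with AOS. Adjusted p-values follow Benjamini and Hochberg within each comparison, called under 0.05. The fit was tested on simulated data with known differences.

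The 10 genes and all gene lists were chosen with earlier results of these data known. Named genes are the 10, every other tested clade A gene, at most 4 called genes per list, taken in order of adjusted p for STZ against Con, and the 3 genes most like Serpina12, Serpina1e, Serpina3k, Serpina3n and Serpina6, of which 1 gene is not reported here. Positions, coding and loop sequences come from GENCODE M21 and promoters from RefSeq; proteins were not used here. Sequences were compared in Python 3.11.15 with Biopython 1.88, numpy 2.4.6 and pandas 2.3.3. Alternatives were median-ratio scaling, median centring, quantile normalization, no variance trend, a pseudocount of 0.1, a stricter filter (1 RPKM in every library) or none, only the 2 groups compared, all 6 groups, a replicate block and leaving out each mouse.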

Additional observations from a re-analysis of the deposited data

How the results depend on the processing

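In STZ against Con, 7 of the 10 genes were called. The count was 3 with quantile normalization (Serpina12, Serpina1a and Serpina1c), 4 with no filter, 3 with only the 2 groups compared, 6 to 8 with the other settings, and 4 to 8 when single mice were left out. In STZ+AOS against AOS, 6 were called, with 4 to 6 under the other settings and 5 to 6 without single mice. In A10-FMT against STZ and Con-FMT against STZ, 0 were called under every setting except that leaving out single mice gave 0 to 4 and 0 to 3. Under all settings run, 0 were called between A10-FMT and Con-FMT, in STZ+AOS against STZ and in AOS against Con. The log2 difference of Serpina1b in STZ+AOS against AOS reversed to 0.19 with quantile normalization. The cause of these changes was not tested.

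Counts over all genes moved too. Of the 4087 genes called in STZ against Con, the count was 2651 with only the 2 groups compared and 2562 to 5012 without single mice. For STZ+AOS against AOS it was 4102, and 2483 with only the 2 groups, 2654 with median-ratio scaling, 2703 with median centring and 2729 with quantile normalization. The 24 genes of A10-FMT against STZ became 95 with median-ratio scaling, 77 with median centring, 47 with quantile normalization, 44 with 1 RPKM in every library, 53 with all 6 groups, 2 with no filter, 1 with only the 2 groups and 0 to 1343 without single mice. The 1 gene of Con-FMT against STZ became 73, 94, 73, 15, 18, 0, 0 and 0 to 1636 under the same settings. AOS against Con, with 1 gene, gave 0 to 41, and STZ+AOS against STZ, with 0, gave 0 to 6.

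Mouse numbers 1 to 3 recur in every group, but same-numbered mice did not deviate together: the correlation of their deviations from the group means averaged 0.04 (-0.25 to 0.47 over 45 pairs), and -0.02 for 90 pairs with different numbers. A fit with the number as a replicate block gave 6 called of the 10 in STZ against Con, 6 in STZ+AOS against AOS, and 0 in the other comparisons. Precision is limited by 3 mice a group, and for Serpina12 and Serpina1e by levels near or below 1 RPKM.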
